A study of Arabidopsis thaliana with 12 samples.

Results

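The genes described here build and break down chlorophyll in Arabidopsis thaliana. They are 35 loci, chosen by name: the tetrapyrrole path from glutamyl-tRNA reductase to chlorophyll synthase, with chlorophyllide a oxygenase (CAO) and geranylgeranyl reductase (CHLP), the regulators FLU and GUN4, both ferrochelatases, and 6 breakdown genes. All 35 were among the 27588 genes of the deposited table, and all 35 were among the 21235 that passed the filter on low counts. Levels are given as CPM, the usual per-depth scaling of counts, and a gene is said to have risen or fallen where edgeR's quasi-likelihood test gave a Benjamini-Hochberg adjusted p under 0.05 over all genes tested.

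RNA came from whole seedlings of 4 genotypes in the Columbia ecotype, with 3 libraries each: the wild type Col-0, a cfh1 mutant (the allele cfh1-1), a line with a CFH1 decoy, and PIF3 over-expression. All 4 spent 7 days under 12 h of light and 12 h of darkness per cycle, then stayed in constant red light and were harvested on day 12 at zeitgeber time 1. The labels give no promoter, line number or clone for the decoy and over-expression lines, and do not say whether replicates came from separate cultures, so each p-value is set against the spread of these libraries, which may be technical. With 1 harvest time, a changed level and a shifted daily rhythm cannot be told apart in any line.

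Plants make chlorophyll inside the chloroplast from glutamate, which is charged onto a transfer RNA and turned into 5-aminolevulinic acid (ALA), the precursor of every tetrapyrrole. ALA is condensed stepwise to protoporphyrin IX, where the path divides: ferrochelatase inserts iron to make haem, and magnesium chelatase inserts magnesium and commits the ring to chlorophyll. Free intermediates such as protochlorophyllide generate singlet oxygen in light, and in flowering plants the reduction of protochlorophyllide itself needs light. Many of these genes are held low in dark-grown Arabidopsis seedlings, where the phytochrome-interacting factors (PIFs), basic helix-loop-helix proteins that active phytochrome removes, repress greening.

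The libraries held 21914394 to 34345088 counts, and the 35 genes together took 0.504% to 1.10% of them. The PIF3 transcript itself stood at 22.8, 26.6 and 36.9 CPM in Col-0 and at 348, 350.2 and 363 CPM in the over-expression line, whose titles say pif3 mutant although the genotype field says over-expression (log2 fold change 3.62, SE 0.228, adjusted p 5.34e-06). The files pair no locus with the name CFH1, so its own level was not analysed here. In all 3 decoy libraries 63 genes had 0 counts although every Col-0 library had at least 1 CPM, against 0 such genes in cfh1 and 0 with PIF3 over-expression. None of the 35 was among those 63. A difference between the decoy line and Col-0 other than the decoy cannot be told apart from the decoy itself.

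The seedlings carried the transcripts of green tissue, and these moved with the genotype. The 5 green tissue markers (RBCS1A, RCA, LHCB1.2, LHCA1 and PRK) summed to 22464 to 23738 CPM in Col-0, 18285 to 27977 in cfh1, 33156 to 45497 in the decoy and 10501 to 16862 with PIF3 over-expression. All 5 rose in the decoy, by log2 fold changes of 0.64 (PRK) to 0.91 (LHCB1.2), and 2 of 5 fell with PIF3 over-expression, RBCS1A by 0.81 and LHCA1 by 0.83 on the log2 scale. The 10 root markers summed to 3154 to 4267 CPM in Col-0 and 3396 to 4368 in cfh1. Their sums were 5256 to 7054 CPM in the decoy and 3586 to 4575 with PIF3 over-expression. Most of each sum was 1 gene, PYK10, whose mean was 3388 CPM in Col-0 and 6091 in the decoy. Of the 10, 3 rose and 2 fell in the decoy, where 19.6% of all genes tested rose and 21.2% fell. With PIF3 over-expression 0 of the 10 moved, where 6.00% of all genes rose and 7.32% fell. No green tissue or root marker was at 0 in any genotype; both pollen markers were at 0 in all libraries, and the 3 seed markers summed to at most 2.003 CPM. Whole seedlings mix organs, and fewer cells of a type and less RNA per cell cannot be told apart. The part of tissue make-up in the results below was not tested.

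The levels of the 35 genes in Col-0 differed widely when divided by exon length. The highest were CRD1, a subunit of the cyclase that closes the fifth ring (670.4 ± 32.9 CPM per kb, SD, n = 3), CHLP, which makes the phytyl tail (466 ± 33.6), and PORB, the main protochlorophyllide oxidoreductase (313 ± 24.8). The lowest were HEMA2, the second glutamyl-tRNA reductase gene (10.5 ± 0.160), PORA, the oxidoreductase best known from dark-grown seedlings (1.88 ± 1.08), and SGR2, a paralogue of the stay-green gene SGR1 (1.10 ± 0.174). PORA and SGR2 did not differ beyond their spread in this order. No 50-base stretch of exon sequence was shared between the members of any paralogue pair (HEMA1 and HEMA2, PORA and PORB, SGR1 and SGR2 and the like). An exact copy of that length from within 1 exon thus belongs to only 1 of them. The read length, near matches and other genes were not examined.

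In the decoy line 18 of the 35 genes rose and 1 fell relative to Col-0, where 19.6% of all genes tested rose and 21.2% fell. In the PIF3 over-expression line 1 rose and 15 fell, where 6.00% of all genes rose and 7.32% fell. In the cfh1 mutant 0 of the 35 moved in either direction, where 0.0141% of all genes rose and 0.0565% fell. All but 1 of the 18 were synthesis genes, led by PORA (5.92-fold), PORB (2.37-fold) and CHLH, the porphyrin-binding subunit of magnesium chelatase (1.88-fold). Of the 15 that fell with PIF3 over-expression, 14 were synthesis genes, led by HEMA1, the main glutamyl-tRNA reductase gene (2.48-fold), CHLH (1.85-fold) and HEME1, a uroporphyrinogen decarboxylase gene (1.80-fold). The counts by role given below stand beside the same shares of all genes, 19.6% and 21.2% in the decoy. With PIF3 over-expression these shares are 6.00% and 7.32%. The lines share the 3 Col-0 libraries, so their values are set side by side below and not correlated.

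The median log2 fold change over the 35 was 0.50 in the decoy, -0.41 with PIF3 over-expression and 0.06 in cfh1, and over all genes tested it was 0.00 in each of these comparisons. Scaling by library totals alone moved the median of all genes by -0.25 (log2) for the decoy and by 0.08 for PIF3 over-expression. Under that scaling the median over the 35 was 0.26 for the decoy and -0.33 for PIF3 over-expression, and 12 of the 35 rose and 3 fell in the decoy. The shares of all genes called under this or any other alternative are not given. Counts under an alternative therefore cannot be read against the shares above.

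The PIF3 over-expression counts changed when single libraries were left out, which also leaves fewer libraries in the fit. The 15 lower calls became 4 without Col-0 replicate 1, 4 without Col-0 replicate 2, 5 without PIF3 over-expression replicate 1 and 8 without its replicate 3, and 24 in a fit of those 2 groups alone. Without the decoy libraries they became 21. The calls of HEMA1, HEME1, HEME2 and NYC1 held in every alternative. In the decoy, leaving out any 1 library left 15 to 21 genes higher, and 12 of the 18 calls (GSA1, HEMB1, HEMC, HEME1, HEMG1, CHLD, CHLH, CRD1, PORA, PORB, CHLG and CHLP) held in every alternative. PIF3 over-expression replicate 1 was the lowest of its 3 libraries for 27 of the 29 synthesis genes.

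**Figure D1:**
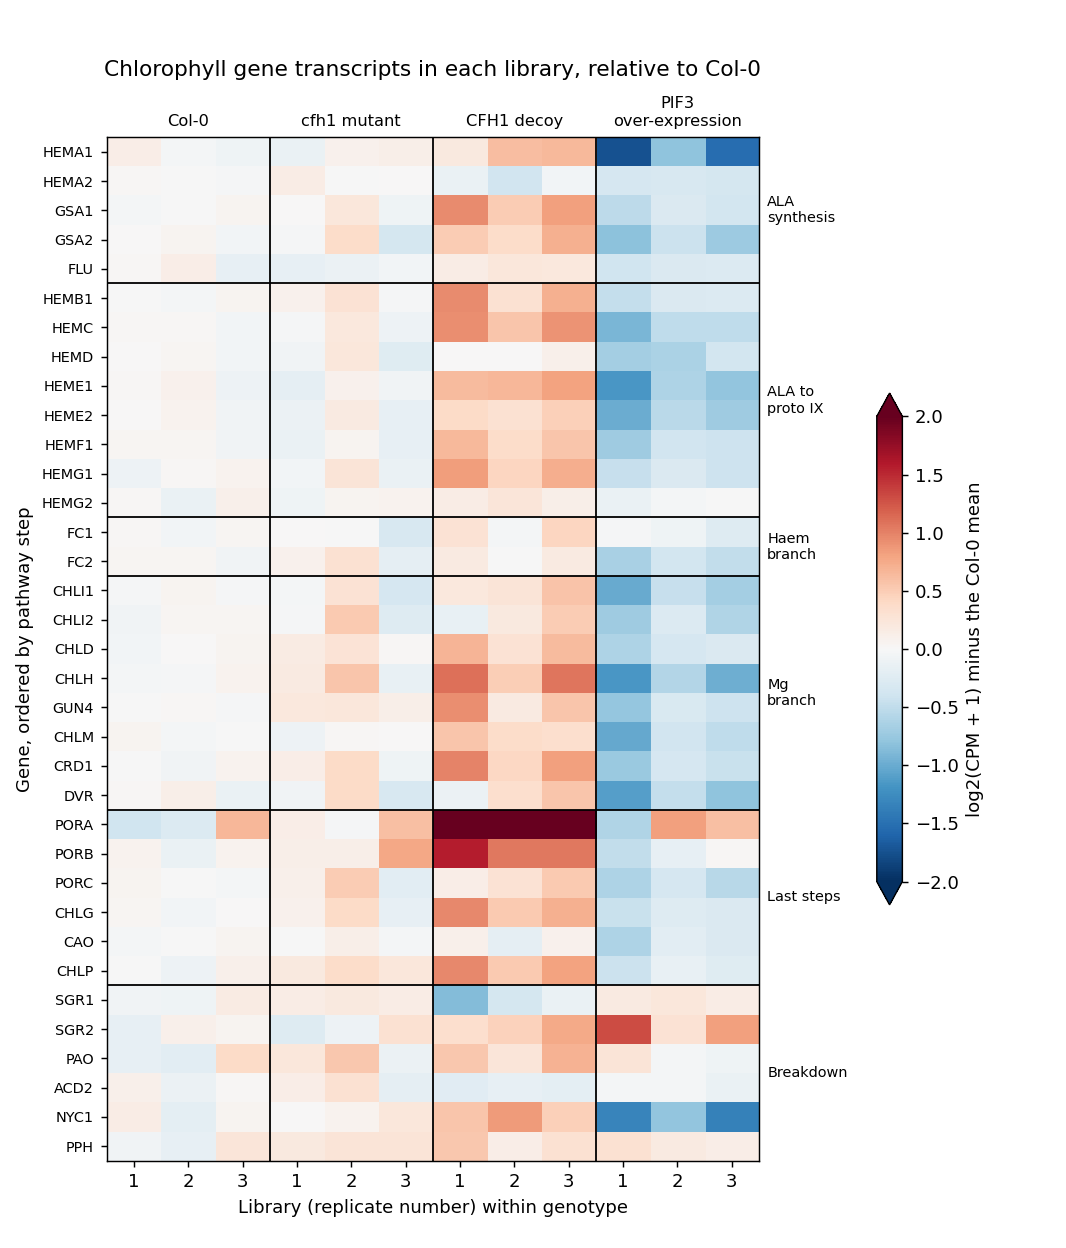
Level of each of the 35 genes (rows, grouped by role) in each of the 12 libraries (columns), as log2(CPM + 1) minus the mean of the 3 Col-0 libraries; the colour scale stops at 2 in either direction, so PORA in the decoy lies beyond it. Most synthesis genes are above Col-0 in the decoy columns and below it in the PIF3 over-expression columns, and the cfh1 columns show no such shift.

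**Figure D2:**
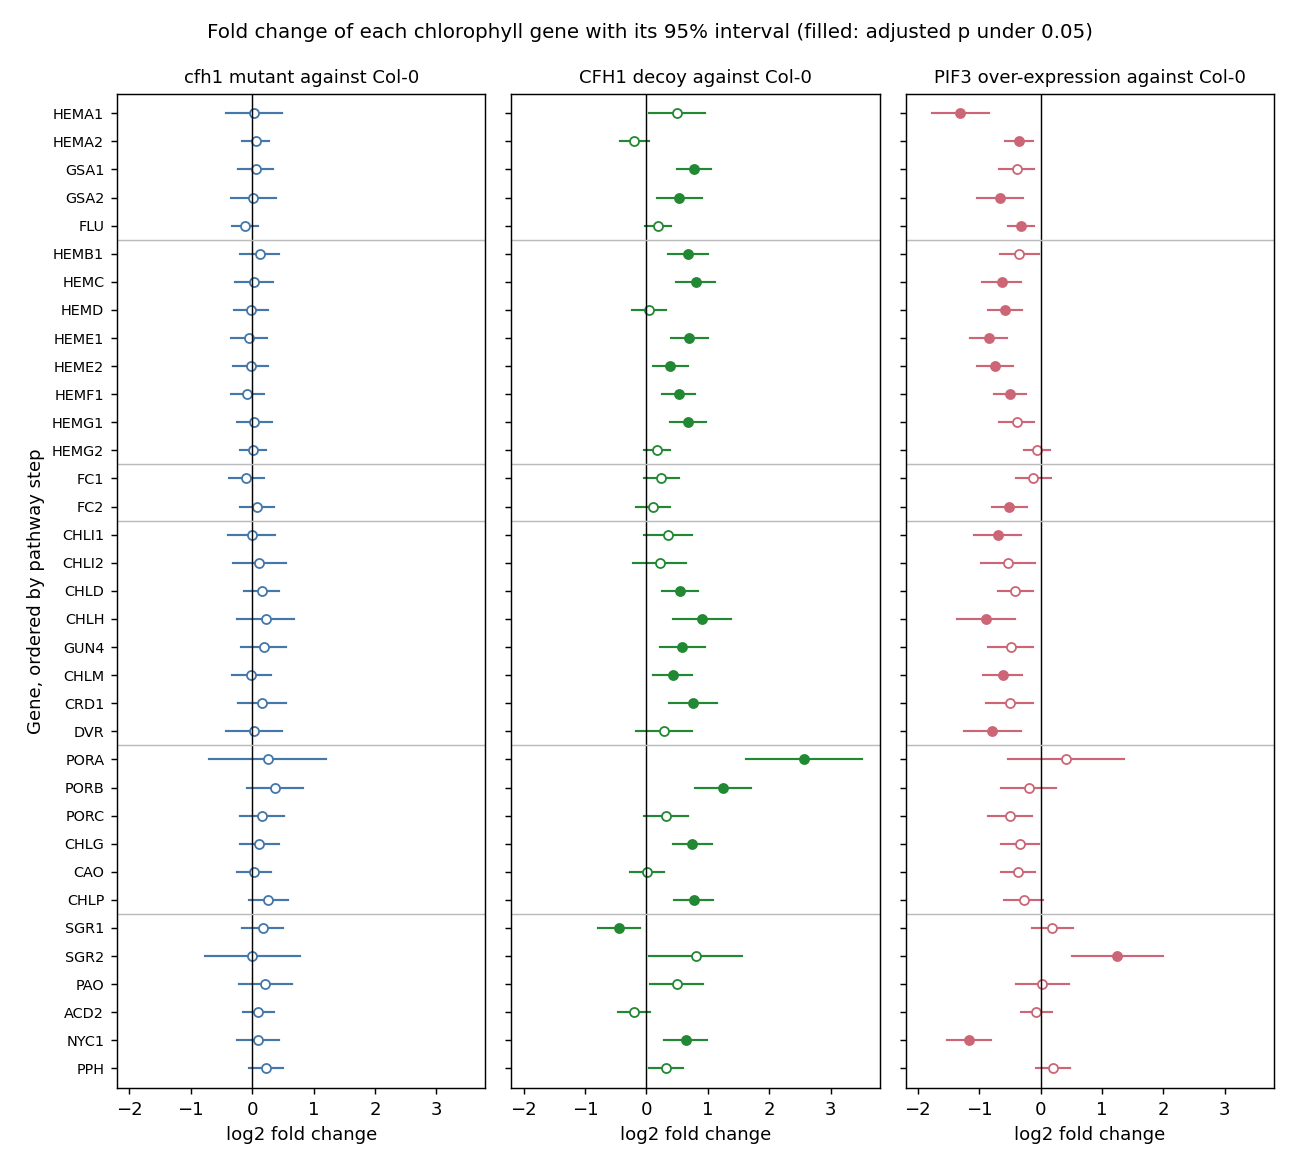
Log2 fold change against Col-0 (x axis) with 95% intervals for each of the 35 genes (y axis) in the cfh1 mutant, the CFH1 decoy and the PIF3 over-expression line, with filled points for genes past the adjusted p threshold. In the decoy 18 genes lie to the right and 1 to the left, with PIF3 over-expression 1 and 15, and in cfh1 no point is filled.

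For cfh1 the intervals limit the size of any difference. The smallest unadjusted p among the 35 was 0.0927 (PPH), the smallest adjusted p was 0.970, and DESeq2 also gave 0 higher and 0 lower. The 95% intervals of the log2 fold changes ran from -0.76 (lower bound, SGR2) to 1.21 (upper bound, PORA), and for 34 of the 35 genes the whole interval lay within a log2 fold change of 1 in either direction. HEMA1 stood at 192, 223 and 229 CPM in cfh1 against 229.9, 206 and 197 in Col-0 (interval -0.43 to 0.48), and CHLH at 1322, 1717 and 1059.8 against 1141, 1146 and 1226 (interval -0.24 to 0.69). For both genes the groups overlapped, and for CHLH the cfh1 libraries lay on both sides of those of Col-0. The share of all genes whose cfh1 and Col-0 libraries separate was not counted, so the next count is description only. Over the 35 genes the libraries of cfh1 and Col-0 overlapped for 32. For the other 3, all cfh1 libraries lay above all Col-0 libraries: 1111, 1250.0 and 1142 CPM against 964, 908 and 1048 for CHLP (interval -0.05 to 0.58), 197, 199.5 and 186 against 169, 174 and 169 for GUN4, a regulator of magnesium chelatase (interval -0.18 to 0.55), and 559, 556 and 880.3 against 537, 466 and 537 for PORB (interval -0.08 to 0.83).

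The first steps make ALA and set the supply of the whole path. Of their 5 genes, 2 rose and 0 fell in the decoy, and 0 rose and 4 fell with PIF3 over-expression. HEMA1 (AT1G58290, chr1:21623700-21626402, TAIR10.1), the glutamyl-tRNA reductase gene that light induces, stood at 229.9, 206 and 197 CPM in the 3 Col-0 libraries, 192, 223 and 229 in cfh1, 241, 324 and 331 in the decoy and 62.1, 121 and 72.2 in PIF3 over-expression. Every PIF3 over-expression library lay below every other library. The fall with PIF3 over-expression was the largest of the 35 (log2 fold change -1.31, SE 0.215, adjusted p 0.00341). In the decoy all 3 libraries lay above all 3 of Col-0, and the difference missed the threshold (log2 fold change 0.50, SE 0.211, adjusted p 0.0725).

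HEMA2 (AT1G09940), the second reductase gene, which is also active in roots, stood at 23.5, 23.1 and 22.8 CPM in the 3 Col-0 libraries, 25.9, 23.0 and 23.4 in cfh1, 21.1, 17.5 and 22.2 in the decoy and 18.2, 18.3 and 17.9 in PIF3 over-expression. The PIF3 over-expression libraries were below the Col-0 libraries without overlap (log2 fold change -0.35, SE 0.105, adjusted p 0.0436). The call ended with library totals alone as the scaling (-0.27), with no filter on low counts (-0.35), without Col-0 replicate 1 (-0.34), 2 (-0.35), 3 (-0.36), PIF3 over-expression replicate 1 (-0.35), 2 (-0.36) or 3 (-0.34). Its decoy value was -0.19 (adjusted p 0.159). Of the pair, HEMA1 had the larger difference with PIF3 over-expression.

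GSA1 and GSA2 encode glutamate-1-semialdehyde aminotransferase, which makes ALA itself. GSA1 (AT5G63570) stood at 115, 117 and 122 CPM in the 3 Col-0 libraries, 119, 139 and 111 in cfh1, 228, 168 and 210.1 in the decoy and 81.7, 96.8 and 91.2 in PIF3 over-expression. It rose in the decoy (log2 fold change 0.78, SE 0.131, adjusted p 6.34e-04), where no library overlapped Col-0, and its value with PIF3 over-expression was -0.39 (adjusted p 0.0650). GSA2 (AT3G48730) stood at 155, 161 and 149 CPM in the 3 Col-0 libraries, 152, 199.5 and 121 in cfh1, 221, 199.6 and 254 in the decoy and 86.8, 114 and 92.7 in PIF3 over-expression. It rose in the decoy (log2 fold change 0.54, SE 0.170, adjusted p 0.0240) and fell with PIF3 over-expression (log2 fold change -0.66, SE 0.171, adjusted p 0.0233). The decoy call of GSA2 ended with library totals alone as the scaling (0.28), without Col-0 replicate 1 (0.54), 2 (0.56), 3 (0.51) or decoy replicate 3 (0.43). Its PIF3 over-expression call ended without Col-0 replicate 1 (-0.66), 2 (-0.63), PIF3 over-expression replicate 1 (-0.58) or 3 (-0.62). FLU (AT3G14110), which holds back glutamyl-tRNA reductase when protochlorophyllide builds up, fell by 0.33 (log2) with PIF3 over-expression (adjusted p 0.0431), and had 0.19 in the decoy (adjusted p 0.138). The former call ended with library totals alone as the scaling (-0.24), with no filter on low counts (-0.32), without Col-0 replicate 1 (-0.31), 2 (-0.26), PIF3 over-expression replicate 1 (-0.29), 2 (-0.34) or 3 (-0.35).

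The 300 bases before the HEMA1 start are shown because that gene fell furthest with PIF3 over-expression. They lie at chr1:21626403-21626702 on the minus strand of TAIR10.1 (RefSeq) and are printed 5′ to 3′ along the gene. None of the 6 short motifs searched for was found, so no letter is in capitals.
HEMA1: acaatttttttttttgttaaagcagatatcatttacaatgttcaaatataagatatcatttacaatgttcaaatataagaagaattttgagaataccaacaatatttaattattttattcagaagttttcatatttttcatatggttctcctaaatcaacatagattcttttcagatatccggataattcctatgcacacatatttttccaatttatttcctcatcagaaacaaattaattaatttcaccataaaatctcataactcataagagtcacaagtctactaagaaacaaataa

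The next 8 genes carry ALA to protoporphyrin IX, and of them 6 rose and 0 fell in the decoy, while 0 rose and 5 fell with PIF3 over-expression. HEMC (AT5G08280), porphobilinogen deaminase, stood at 266, 267 and 253 CPM in the 3 Col-0 libraries, 258, 302 and 244 in cfh1, 498, 387 and 489 in the decoy and 138, 184 and 183 in PIF3 over-expression. The decoy libraries were all above, and the PIF3 over-expression libraries all below, every Col-0 and cfh1 library. HEMC rose in the decoy (log2 fold change 0.81, SE 0.146, adjusted p 0.00104) and fell with PIF3 over-expression (log2 fold change -0.64, SE 0.146, adjusted p 0.0141), a call that ended without Col-0 replicate 1 (-0.63), 2 (-0.62) or PIF3 over-expression replicate 1 (-0.51).

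Uroporphyrinogen decarboxylase, which trims the side chains of the first ring-shaped intermediate, has a pair of genes here. HEME1 (AT3G14930) stood at 136, 141 and 124 CPM in the 3 Col-0 libraries, 118, 142 and 127 in cfh1, 207, 213 and 233 in the decoy and 59.3, 86.7 and 77.3 in PIF3 over-expression. The decoy libraries were above, and the PIF3 over-expression libraries below, every library of Col-0 and cfh1. The rise in the decoy (log2 fold change 0.70, SE 0.137, adjusted p 0.00168) and the fall with PIF3 over-expression (log2 fold change -0.85, SE 0.137, adjusted p 0.00334) both held in every alternative. HEME2 (AT2G40490) stood at 201, 208 and 189.8 CPM in the 3 Col-0 libraries, 185, 226 and 178 in cfh1, 262, 248 and 277 in the decoy and 99.7, 137 and 121 in PIF3 over-expression. Its fall with PIF3 over-expression was of like size (log2 fold change -0.75, SE 0.134, adjusted p 0.00520), and its rise in the decoy (log2 fold change 0.39, SE 0.134, adjusted p 0.0325) was smaller and ended with library totals alone as the scaling (0.14), without Col-0 replicate 1 (0.40), 2 (0.42), 3 (0.36), decoy replicate 1 (0.39) or 3 (0.34).

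HEMB1 (AT1G69740), porphobilinogen synthase, stood at 130.1, 127 and 136 CPM in the 3 Col-0 libraries, 139, 159 and 129 in cfh1, 252, 161 and 215 in the decoy and 93.5, 107 and 108 in PIF3 over-expression. It rose in the decoy without overlap (log2 fold change 0.68, SE 0.149, adjusted p 0.00353), and its value with PIF3 over-expression was -0.35 (adjusted p 0.150). Protoporphyrinogen oxidase, the last enzyme before the branch, is encoded by HEMG1 and HEMG2. HEMG1 (AT4G01690) stood at 107, 117 and 120.5 CPM in the 3 Col-0 libraries, 111, 138 and 105 in cfh1, 206, 155 and 191 in the decoy and 83.1, 93.8 and 86.3 in PIF3 over-expression, and rose in the decoy (log2 fold change 0.68, SE 0.134, adjusted p 0.00178). HEMG2 (AT5G14220) stood at 30.4, 27.2 and 31.9 CPM in the 3 Col-0 libraries, 28.0, 30.9 and 31.3 in cfh1, 33.2, 35.5 and 32.4 in the decoy and 27.1, 28.9 and 29.7 in PIF3 over-expression. Its decoy libraries lay just above those of Col-0, and its PIF3 over-expression libraries overlapped them, with 0.18 in the decoy (adjusted p 0.157) and -0.06 with PIF3 over-expression (adjusted p 0.728). HEMF1 (AT1G03475), coproporphyrinogen oxidase, rose in the decoy (log2 fold change 0.52) and fell with PIF3 over-expression (-0.50), and HEMD (AT2G26540), uroporphyrinogen III synthase, fell with PIF3 over-expression (-0.58) and had 0.04 in the decoy (adjusted p 0.817). The decoy call of HEMF1 ended with library totals alone as the scaling (0.26). Its PIF3 over-expression call ended without Col-0 replicate 1 (-0.48), 2 (-0.48) or PIF3 over-expression replicate 1 (-0.40), and that of HEMD without Col-0 replicate 1 (-0.58), 2 (-0.56) or PIF3 over-expression replicate 1 (-0.52).

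In the haem branch, of the 2 ferrochelatase genes 0 moved in the decoy and 1 fell with PIF3 over-expression. FC1 (AT5G26030), which is also active in tissue that is not green, stood at 63.5, 60.2 and 64.2 CPM in the 3 Col-0 libraries, 63.2, 62.1 and 50.2 in cfh1, 77.0, 60.9 and 84.5 in the decoy and 61.9, 58.9 and 52.0 in PIF3 over-expression. Its groups overlapped, and its intervals were -0.04 to 0.53 for the decoy and -0.41 to 0.16 for PIF3 over-expression. FC2 (AT2G30390), the ferrochelatase of green tissue, stood at 109.8, 109 and 101 CPM in the 3 Col-0 libraries, 113, 131 and 93.9 in cfh1, 121, 106 and 120.5 in the decoy and 67.3, 82.1 and 75.7 in PIF3 over-expression. All PIF3 over-expression libraries were below all Col-0 libraries (log2 fold change -0.51, SE 0.129, adjusted p 0.0213), a call that ended without Col-0 replicate 1 (-0.49), 2 (-0.49), PIF3 over-expression replicate 1 (-0.44) or 3 (-0.51). In the decoy the interval of FC2 was -0.16 to 0.39.

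The magnesium branch takes protoporphyrin IX towards protochlorophyllide, and of its 8 genes 5 rose and 0 fell in the decoy, and 0 rose and 4 fell with PIF3 over-expression. CHLH (AT5G13630, chr5:4387307-4392429, TAIR10.1), the large magnesium chelatase subunit that holds the porphyrin, stood at 1141, 1146 and 1226 CPM in the 3 Col-0 libraries, 1322, 1717 and 1059.8 in cfh1, 2499.6, 1653 and 2452 in the decoy and 519.9, 783 and 597 in PIF3 over-expression. Each PIF3 over-expression library was below each Col-0 library, and each decoy library above. Against Col-0, CHLH rose in the decoy (log2 fold change 0.91, SE 0.217, adjusted p 0.00563) and fell with PIF3 over-expression (log2 fold change -0.89, SE 0.217, adjusted p 0.0185). The latter call ended without Col-0 replicate 1 (-0.91), 2 (-0.90), 3 (-0.85), PIF3 over-expression replicate 1 (-0.76) or 3 (-0.85), with estimates on the same side in each.

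The same enzyme has ATPase subunits, CHLI and CHLD. CHLI1 (AT4G18480) stood at 469, 495 and 472 CPM in the 3 Col-0 libraries, 465, 587 and 378 in cfh1, 555, 570.5 and 709 in the decoy and 238, 347 and 299 in PIF3 over-expression. It fell with PIF3 over-expression (log2 fold change -0.70, SE 0.179, adjusted p 0.0223), a call lost without Col-0 replicate 1 (-0.71), 2 (-0.68), 3 (-0.71), PIF3 over-expression replicate 1 (-0.57) or 3 (-0.71), and had 0.35 in the decoy (adjusted p 0.129). CHLI2 (AT5G45930), its less abundant paralogue in Arabidopsis, stood at 67.2, 72.5 and 72.9 CPM in the 3 Col-0 libraries, 69.9, 102 and 59.0 in cfh1, 63.8, 81.1 and 102 in the decoy and 42.8, 58.5 and 46.5 in PIF3 over-expression. It passed the test in neither line (log2 fold change 0.21, adjusted p 0.418 in the decoy and -0.52, adjusted p 0.113 with PIF3 over-expression). CHLD (AT1G08520) rose in the decoy (log2 fold change 0.55, SE 0.133) and had -0.41 with PIF3 over-expression (adjusted p 0.0595).

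GUN4 (AT3G59400), which binds porphyrin and stimulates the chelatase, stood at 169, 174 and 169 CPM in the 3 Col-0 libraries, 197, 199.5 and 186 in cfh1, 325, 194 and 251 in the decoy and 99.5, 137 and 128 in PIF3 over-expression. It rose in the decoy (log2 fold change 0.59, SE 0.168, adjusted p 0.0147), a call that ended with library totals alone as the scaling (0.31) or without decoy replicate 1 (0.37). CRD1 (AT3G56940) stood at 996, 955 and 1053 CPM in the 3 Col-0 libraries, 1099, 1310.4 and 946 in cfh1, 1992, 1337 and 1767 in the decoy and 596, 789 and 736 in PIF3 over-expression. It rose in the decoy without overlap (log2 fold change 0.76, SE 0.179, adjusted p 0.00515), and its value with PIF3 over-expression was -0.50 (adjusted p 0.0842), with no overlap there either. DVR (AT5G18660), which reduces a vinyl side chain, stood at 127, 136 and 114 CPM in the 3 Col-0 libraries, 119.7, 163 and 99.9 in cfh1, 115, 159 and 185 in the decoy and 57.7, 89.2 and 71.4 in PIF3 over-expression. It fell with PIF3 over-expression (log2 fold change -0.79, SE 0.212, adjusted p 0.0281), a call lost without Col-0 replicate 1 (-0.78), 2 (-0.73), PIF3 over-expression replicate 1 (-0.64) or 3 (-0.77), and had 0.29 in the decoy (adjusted p 0.290). CHLM (AT4G25080), the methyltransferase after the chelatase, fell with PIF3 over-expression (-0.62), a call lost without Col-0 replicate 1 (-0.59) or 2 (-0.64). In the decoy it rose (0.43), a call lost with library totals alone as the scaling (0.17), without Col-0 replicate 1 (0.46), 2 (0.41), 3 (0.42) or decoy replicate 1 (0.35).

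**Figure D3:**
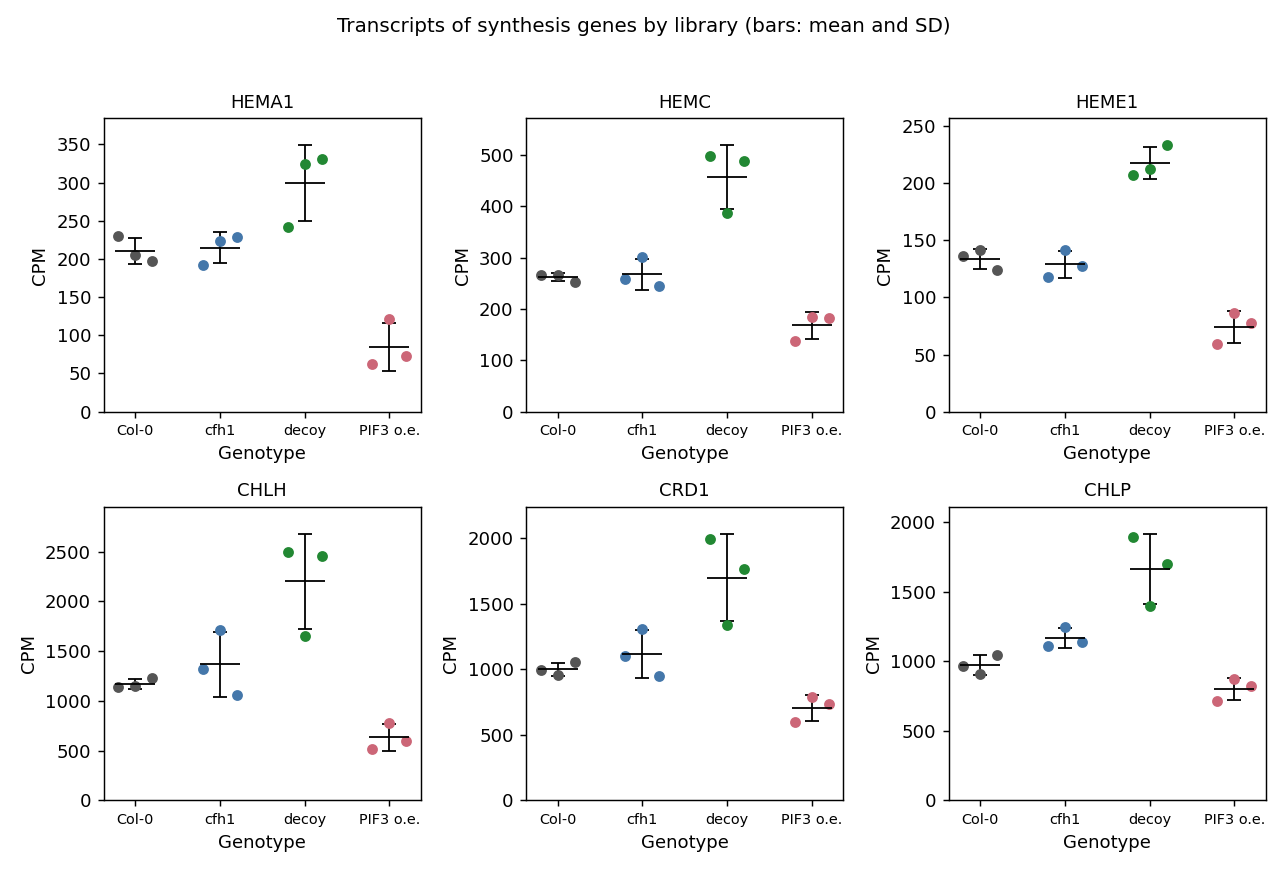
CPM (y axis) of genes at named steps of synthesis in each library (points) of the 4 genotypes (x axis), with the mean (horizontal line) and SD (error bar) of 3 libraries. Each gene drawn has its highest mean in the decoy and its lowest with PIF3 over-expression, and the cfh1 points overlap those of Col-0 in each panel but that of CHLP.

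The last steps turn protochlorophyllide into chlorophylls a and b. Of their 6 genes, 4 rose and 0 fell in the decoy, and 0 passed the test with PIF3 over-expression. Protochlorophyllide oxidoreductase, the light-requiring enzyme, has 3 genes in Arabidopsis: PORA is known for its role in dark-grown seedlings and its decline in light, PORB stays through greening, and PORC rises with light. PORA (AT5G54190, chr5:21990864-21992814, TAIR10.1) stood at 1.95, 2.23 and 5.19 CPM in the 3 Col-0 libraries, 3.28, 2.84 and 4.91 in cfh1, 19.7, 16.6 and 18.8 in the decoy and 1.55, 5.90 and 4.89 in PIF3 over-expression. All 3 decoy libraries were above every other library, and the other genotypes overlapped. The rise of PORA in the decoy was the largest of the 35 (log2 fold change 2.57, SE 0.439, adjusted p 7.09e-04), and with PIF3 over-expression the interval was -0.53 to 1.35. PORA started from few counts, and its Col-0 libraries differed among themselves.

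PORB (AT4G27440, chr4:13725546-13727440, TAIR10.1) stood at 537, 466 and 537 CPM in the 3 Col-0 libraries, 559, 556 and 880.3 in cfh1, 1522, 1066 and 1064 in the decoy and 366, 457 and 521 in PIF3 over-expression. Each decoy library was above each library of the other genotypes, and cfh1 replicate 3 was the highest of the rest. PORB rose in the decoy (log2 fold change 1.24, SE 0.213, adjusted p 7.07e-04) and had an interval of -0.65 to 0.26 with PIF3 over-expression. PORC (AT1G03630, chr1:907523-909650, TAIR10.1) stood at 166, 159 and 155 CPM in the 3 Col-0 libraries, 171, 228 and 138 in cfh1, 176, 195 and 231 in the decoy and 104, 126 and 109 in PIF3 over-expression. It passed the test in neither line (log2 fold change 0.33, SE 0.166, adjusted p 0.131 in the decoy; log2 fold change -0.50, SE 0.166, adjusted p 0.0658 with PIF3 over-expression).

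Divided by exon length, PORB made up 77.4% ± 1.31 of the summed level of the 3 genes in Col-0 (SD, n = 3) and 85.4% ± 3.67 in the decoy. The share of PORC was 22.2% ± 1.47 in Col-0 and 13.3% ± 3.52 in the decoy, without overlap between their libraries, and that of PORA 0.462% ± 0.251 and 1.29% ± 0.148. With PIF3 over-expression the shares were 0.704% ± 0.344 (PORA), 80.4% ± 2.46 (PORB) and 18.9% ± 2.53 (PORC), and in cfh1 0.432% ± 0.0592, 79.0% ± 7.38 and 20.6% ± 7.43 in the same order. The lowest p that an exact permutation test of 3 against 3 libraries allows is 0.1, and the shares were not tested.

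**Figure D4:**
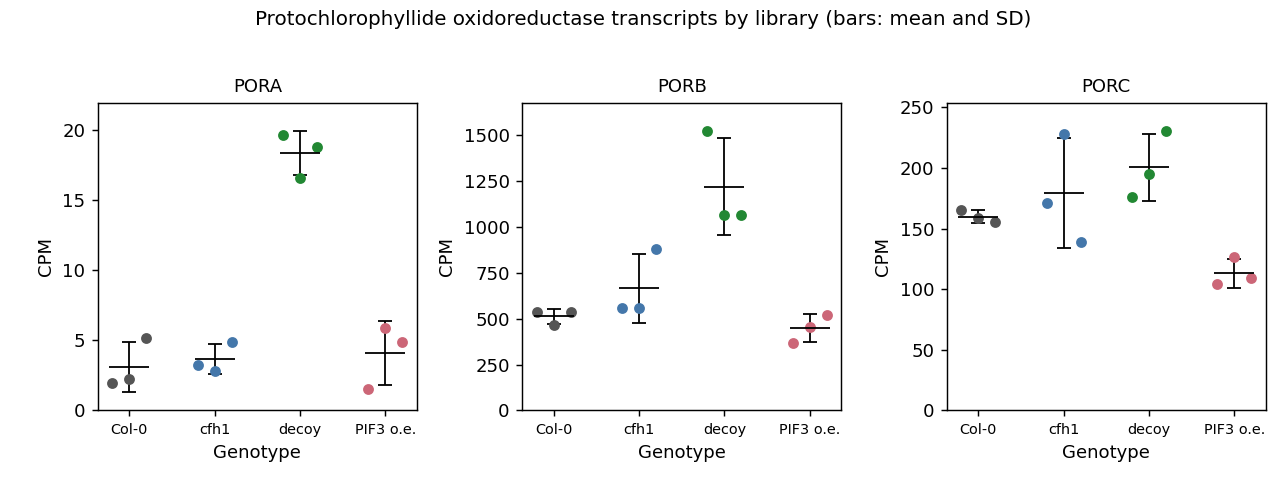
CPM of PORA, PORB and PORC in each library (points; y axis differs between panels) of the 4 genotypes, with the mean (horizontal line) and SD (error bar) of 3 libraries. PORA and PORB stand apart from the other genotypes in the decoy, and PORC does not.

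The upstream sequences of PORA and PORB are shown because these genes rose most in the decoy. They are read from TAIR10.1 (RefSeq) along each gene, 5′ to 3′, with capitals for matches on either strand to 6 short motifs. The PORA window is the 300 bases at chr5:21992815-21993114 on the minus strand, and the PORB window the 186 bases at chr4:13725360-13725545 on the plus strand, trimmed where the neighbouring gene begins.
PORA: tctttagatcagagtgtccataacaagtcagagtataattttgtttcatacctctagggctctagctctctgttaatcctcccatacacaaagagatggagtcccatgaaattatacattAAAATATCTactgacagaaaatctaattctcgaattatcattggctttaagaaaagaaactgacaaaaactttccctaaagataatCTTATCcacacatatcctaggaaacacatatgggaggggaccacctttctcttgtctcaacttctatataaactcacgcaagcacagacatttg
PORB: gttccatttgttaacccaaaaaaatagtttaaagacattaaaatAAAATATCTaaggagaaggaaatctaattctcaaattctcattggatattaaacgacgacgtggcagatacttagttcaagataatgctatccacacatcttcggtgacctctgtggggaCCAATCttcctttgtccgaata

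Both windows hold the evening element AAAATATCT, a sequence known to be bound by clock proteins in Arabidopsis, 180 bases before the PORA start and 142 before the PORB start. PORA also holds GATAAG (printed as its complement strand CTTATC), and PORB holds CCAATC. After each evening element comes the same 13-base run, aaatctaattctc, at 162 and 123 bases before the starts. This run was noticed after the windows were read, as a stretch that both share. Of 21110 windows of tested protein-coding genes, 3 hold it (0.0142%), and those of PORA and PORB are among them by that choice. The count therefore cannot show whether sharing the run is unusual. A match describes letters in a window and is no evidence that a factor binds there.

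CHLP (AT1G74470) stood at 964, 908 and 1048 CPM in the 3 Col-0 libraries, 1111, 1250.0 and 1142 in cfh1, 1896, 1398 and 1702 in the decoy and 719, 875 and 819.7 in PIF3 over-expression. It rose in the decoy without overlap (log2 fold change 0.77, SE 0.147, adjusted p 0.00142) and had -0.28 with PIF3 over-expression (adjusted p 0.252). CHLG (AT3G51820), chlorophyll synthase, which joins the tail to the ring, rose in the decoy (log2 fold change 0.75, SE 0.146) and had -0.33 with PIF3 over-expression (adjusted p 0.159). CAO (AT1G44446), which oxidises chlorophyllide a on the way to chlorophyll b, passed the test in neither line: its values were 0.01 (interval -0.27 to 0.28) and -0.36 (interval -0.64 to -0.09).

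Of the 6 breakdown genes, 1 rose (NYC1) and 1 fell (SGR1) in the decoy. Both decoy counts are near the shares of all genes tested, 19.6% higher and 21.2% lower. With PIF3 over-expression 1 rose (SGR2) and 1 fell (NYC1), where 6.00% of all genes rose and 7.32% fell. NYC1 (AT4G13250, chr4:7684156-7687006, TAIR10.1), the chlorophyll b reductase that starts the conversion of chlorophyll b back to a, stood at 73.8, 57.9 and 68.7 CPM in the 3 Col-0 libraries, 66.8, 69.9 and 77.6 in cfh1, 98.3, 120.3 and 93.3 in the decoy and 25.9, 37.9 and 25.4 in PIF3 over-expression. The decoy was highest and PIF3 over-expression lowest, without overlap. NYC1 rose in the decoy (log2 fold change 0.64, SE 0.161, adjusted p 0.00748), a call lost with library totals alone as the scaling (0.39), and fell with PIF3 over-expression (log2 fold change -1.17, SE 0.163, adjusted p 0.00156), the second largest fall of the 35.

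SGR1 (AT4G22920), the stay-green magnesium dechelatase of senescing leaves, stood at 17.9, 17.7 and 21.4 CPM in the 3 Col-0 libraries, 21.2, 21.9 and 21.0 in cfh1, 9.95, 14.6 and 17.1 in the decoy and 21.6, 22.2 and 21.1 in PIF3 over-expression. All decoy libraries were below all other libraries, with decoy replicate 1 the lowest. The fall in the decoy (log2 fold change -0.44, SE 0.159, adjusted p 0.0405) ended in a fit of the 2 groups alone (-0.46), without Col-0 replicate 1 (-0.48), 2 (-0.49), 3 (-0.35), decoy replicate 1 (-0.27) or 2 (-0.48). SGR2 (AT4G11910, chr4:7156150-7158047, TAIR10.1), its paralogue, stood at 1.18, 1.61 and 1.51 CPM in the 3 Col-0 libraries, 1.03, 1.27 and 1.98 in cfh1, 2.07, 2.33 and 3.09 in the decoy and 4.99, 1.97 and 3.26 in PIF3 over-expression. The PIF3 over-expression libraries were above the Col-0 libraries and varied among themselves, with replicate 1 the highest. SGR2 rose with PIF3 over-expression (log2 fold change 1.25, SE 0.344, adjusted p 0.0305), a call that ended without Col-0 replicate 1 (1.12), 2 (1.34), 3 (1.29), PIF3 over-expression replicate 1 (0.87) or 3 (1.28), and had 0.81 in the decoy (adjusted p 0.0816).

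Of the members that act downstream of magnesium removal (PPH, PAO and ACD2), no gene passed the test in either line. PPH (AT5G13800), which removes the tail from pheophytin, had 0.33 in the decoy (adjusted p 0.0568) and 0.20 with PIF3 over-expression (adjusted p 0.342). PAO (AT3G44880), the oxygenase that opens the ring, had 0.49 (adjusted p 0.0636) and 0.03 (adjusted p 0.950). ACD2 (AT4G37000), which reduces the red product of that step, had -0.20 (adjusted p 0.189) and -0.07 (adjusted p 0.733).

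**Figure D5:**
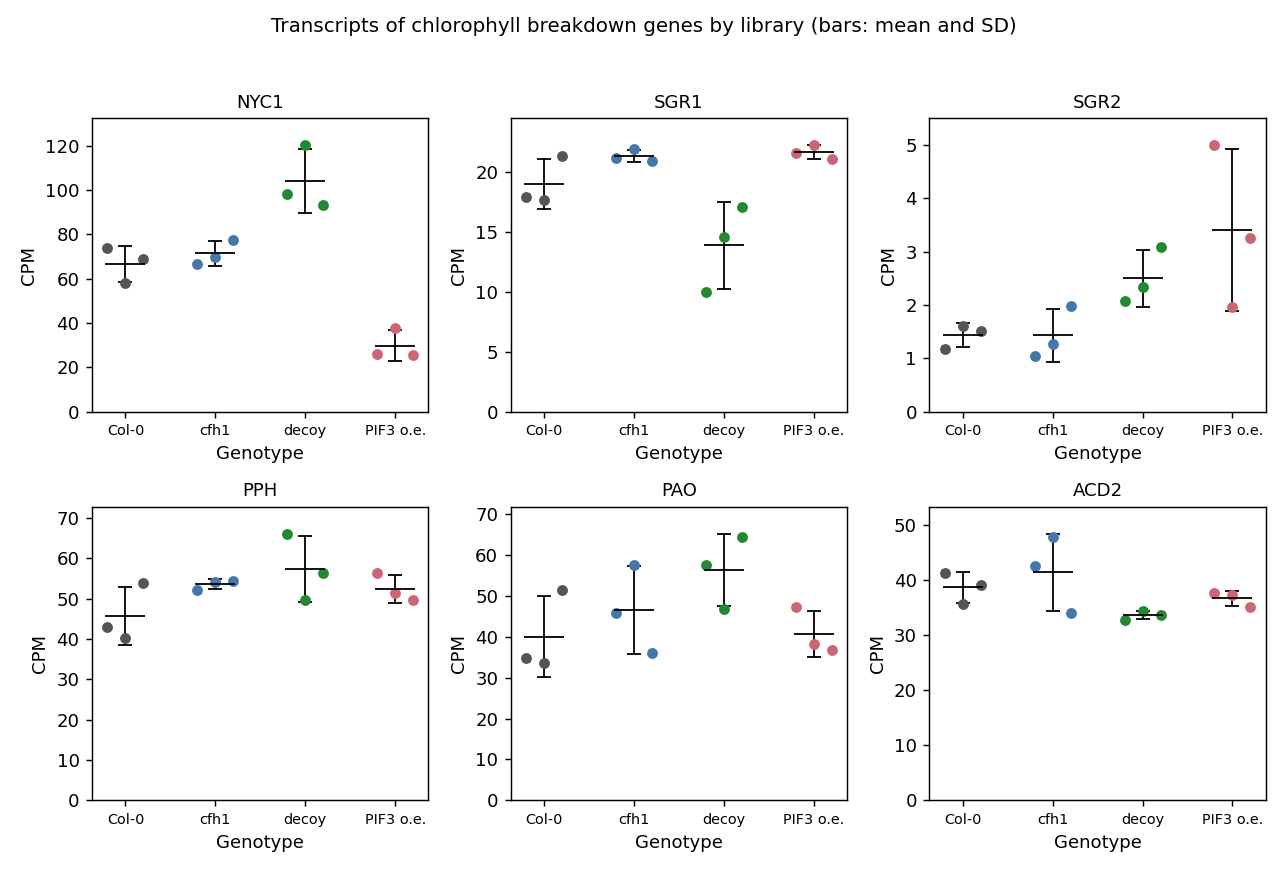
CPM of the 6 breakdown genes in each library (points; y axis differs between panels) of the 4 genotypes, with the mean (horizontal line) and SD (error bar) of 3 libraries. NYC1 is highest in the decoy and lowest with PIF3 over-expression, SGR1 is lowest in the decoy, and SGR2 has its highest mean with PIF3 over-expression.

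The 300 bases before the SGR2 start are shown because SGR2 was the gene that rose with PIF3 over-expression. They lie at chr4:7155850-7156149 on the plus strand of TAIR10.1 (RefSeq). Capitals mark the G-box CACGTG and the PBE-box CACATG, both known as PIF-bound sequences in Arabidopsis, at 112 and 88 bases before the start, and the complement of GATAAG.
SGR2: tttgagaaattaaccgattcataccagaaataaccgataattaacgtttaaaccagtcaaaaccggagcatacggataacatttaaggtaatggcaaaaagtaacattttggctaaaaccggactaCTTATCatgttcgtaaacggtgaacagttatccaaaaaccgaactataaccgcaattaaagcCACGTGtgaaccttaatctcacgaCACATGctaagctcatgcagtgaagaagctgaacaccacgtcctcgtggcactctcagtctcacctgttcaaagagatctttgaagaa

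Across all 35 genes, these motifs were sought on both strands of the full 300 bases before each start and compared with 21110 tested protein-coding genes. Windows that reach into a neighbouring gene were not trimmed here, so the shares include sequence of such genes. For PORB this adds a CCAATC at 219 bases, outside the window printed above. The G-box was in 5 of 35 windows (14.3%) and in 7.99% of all windows: those of HEMD, FC2, CRD1, CAO and SGR2. The PBE-box was in 5 of 35 (14.3% against 13.3%), and the CCA1 binding site AAAAATCT in 4 of 35 (11.4% against 7.88%). The evening element was in 3 of 35 (8.57% against 2.86%), those of PORA, PORB and NYC1. CCAATC was in 3 of 35 (8.57% against 12.5%) and GATAAG in 4 of 35 (11.4% against 14.6%). Counts this small were not tested.

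The lines were also compared directly. PIF3 over-expression against the decoy does not involve Col-0, and there 28 of the 35 were lower and 1 higher (SGR1), when 20.5% of all genes tested were lower and 22.7% higher. Of the 29 synthesis genes 27 were lower. The exceptions were HEMA2 (-0.16, adjusted p 0.247) and HEMG2 (-0.24, adjusted p 0.0600). The largest differences were PORA (log2 fold change -2.16, SE 0.427, adjusted p 0.00145), HEMA1 (log2 fold change -1.81, SE 0.217, adjusted p 4.01e-05), NYC1 (log2 fold change -1.81, SE 0.166, adjusted p 4.78e-06) and CHLH (log2 fold change -1.80, SE 0.222, adjusted p 4.92e-05). The median over the 35 was -1.05, against 0.02 over all genes. Scaled by library totals alone, these medians were -0.70 and 0.36, and 23 of the 35 were lower and 2 higher. The calls of CAO (-0.03), CHLI2 (-0.41), FC1 (-0.02), FLU (-0.18) and HEMD (-0.29) ended under that scaling. That of CHLI2 also ended without decoy replicate 3 (-0.55). In a fit of the 2 groups alone those of CAO (-0.37) and FC1 (-0.37) ended. The call of CAO ended without decoy replicate 1 (-0.32) or 3 (-0.32), or PIF3 over-expression replicate 1 (-0.26) or 3 (-0.40). The call of FC1 ended without decoy replicate 1 (-0.33) or 3 (-0.25), or PIF3 over-expression replicate 2 (-0.38) or 3 (-0.29). Of the breakdown genes, NYC1 was lower, SGR1 higher (log2 fold change 0.63, SE 0.158, adjusted p 0.00625), and SGR2 (0.44), PAO (-0.46), ACD2 (0.13) and PPH (-0.13) passed in neither direction. Between 25 and 29 genes were lower when any 1 library was left out.

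The decoy and PIF3 over-expression libraries were also set against those of cfh1 in place of Col-0. In the decoy 18 genes were higher and 1 lower than in cfh1, when 15.0% and 18.2% of all genes were. The gene that was lower was SGR1 (log2 fold change -0.61, SE 0.159, adjusted p 0.0107), and PORA (2.31), PORB (0.87), GSA1 (0.72) and CHLP (0.51) were among the higher. The call of CHLP ended with library totals alone as the scaling (0.27), in a fit of the 2 groups alone (0.51), without cfh1 replicate 1 (0.48) or decoy replicate 1 (0.41), and that of SGR1 in a fit of the 2 groups alone (-0.62). Without cfh1 replicate 1 the 18 became 9, without cfh1 replicate 3 they became 11, without decoy replicate 1 they became 11, and scaling by library totals alone gave 9. The 1 lower became 2 without cfh1 replicate 3 or decoy replicate 3. With PIF3 over-expression 20 genes were lower and 1 higher than in cfh1, when 7.18% and 5.70% of all genes were. HEMA1 (log2 fold change -1.34, SE 0.215, adjusted p 0.00287), NYC1 (log2 fold change -1.27, SE 0.163, adjusted p 0.00101) and CHLH (log2 fold change -1.11, SE 0.218, adjusted p 0.00778) were among the lower, and SGR2 was the higher (log2 fold change 1.25, SE 0.346, adjusted p 0.0327). The 20 became 8 without cfh1 replicate 1, 5 without cfh1 replicate 2, 5 without PIF3 over-expression replicate 1 and 11 without its replicate 3. Without the decoy libraries they became 25. The call of SGR2 ended in a fit of the 2 groups alone (1.26), without cfh1 replicate 1 (1.06), 2 (1.17), PIF3 over-expression replicate 1 (0.86) or 3 (1.28).

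Of 19 other genes that act on these pigments, 0 moved in cfh1. In the decoy 10 rose and 1 fell, beside the 19.6% and 21.2% of all genes given above. With PIF3 over-expression 1 rose and 5 fell, beside 6.00% and 7.32%, and the 1 that rose is near that share. In the decoy the largest changes were in HEMB2, a paralogue of the porphobilinogen synthase gene HEMB1 (log2 fold change 3.66, SE 0.502, adjusted p 1.50e-04), in HEMA3, a further reductase gene, which fell (log2 fold change -1.38, SE 0.396, adjusted p 0.0149), and in MES16, an esterase that acts on chlorophyll breakdown products (log2 fold change 1.25, SE 0.229, adjusted p 0.00108). HEMB2 had 3 to 6 counts in each Col-0 library, so its fold change is imprecise. HEMA3 was also low, with 15, 23 and 21 counts in the Col-0 libraries and 4, 5 and 9 in the decoy. MES16 stood at 6.20, 6.39 and 6.15 CPM in Col-0 and 17.6, 14.0 and 13.3 in the decoy.

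With PIF3 over-expression the largest changes among these neighbours were in UPM1, the first enzyme of the sirohaem branch, which fell (log2 fold change -0.84, SE 0.131, adjusted p 0.00266), in CLH2, a chlorophyllase, which rose (log2 fold change 0.81, SE 0.220, adjusted p 0.0284), and in SGRL, a stay-green-like dechelatase of green leaves, which fell (log2 fold change -0.79, SE 0.166, adjusted p 0.00966). UPM1 stood at 205, 169.8 and 179 CPM in Col-0 and 85.2, 117 and 107 with PIF3 over-expression, and SGRL at 126, 123 and 111 and 48.1, 83.1 and 77.3. CLH2 stood at 2.78, 2.26 and 2.03 in Col-0 and 4.88, 3.43 and 4.13. For each of these 3 genes the PIF3 over-expression and Col-0 libraries did not overlap.

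Of 7 leaf senescence markers, 6 were tested and SAG12 had 0 counts in all 12 libraries. Over all genes tested, 19.6% rose and 21.2% fell in the decoy, and 6.00% and 7.32% with PIF3 over-expression. In the decoy SAG13 (1.12, adjusted p 0.0234) and ERD1, a chloroplast protease regulator (0.49, adjusted p 0.0460), rose, and JUB1, a transcription factor that delays senescence, fell (-1.70, adjusted p 1.56e-04). With PIF3 over-expression 0 of 6 passed.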

How the data were processed

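Messenger RNA libraries from 12 samples (4 genotypes, 3 each) were analysed from 1 table of estimated counts per gene that the authors deposited, in which 41.57% of values were not whole (tolerance 1e-09). The submitters' processing notes list TAIR10 as the build and, as tools, StringTie 2.1.2, HISAT2 2.1.0 and Trimmomatic 0.39. How reads were counted, and whether by strand, is not given in the sources used here, so reads of overlapping or antisense genes cannot be told apart. PIF3 libraries were grouped by their genotype field.

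Counts were rounded, filtered (filterByExpr, minimum count 10; 21235 genes kept) and scaled by TMM. All 12 libraries were fitted together (edgeR 4.0.16 in R 4.3.3; common biological coefficient of variation 0.172, 8 residual degrees of freedom), with 1 quasi-likelihood test for each of 6 comparisons, adjusted over all genes. SE is the log2 fold change over the root of the F statistic, and intervals are 95%. CPM uses library totals (21914394 to 34345088 counts) multiplied by TMM factors, and CPM per kb the union of exons in TAIR10.1. The test was run on simulated counts in which few genes were changed, in the decoy libraries only. Such counts cannot check the scaling in the real decoy libraries, where many genes moved. Alternatives were DESeq2 1.42.0, other scalings and filters, fits without some libraries and a replicate block. The genes named in full are those past the test with the largest changes in each role, up to 3 per line, and every paralogue set. The genes, marker lists, motifs and tests were chosen with earlier results of these data known. Locus codes matched TAIR10.1 RefSeq genes for 35 of 35.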

Additional observations from a re-analysis of the deposited data

How the results depend on the processing

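No result reversed under any alternative run, and all 0 counts for cfh1 against Col-0 stayed at 0. Counts under an alternative stand here without the shares of all genes under it, which are not given. Scaling by library totals alone gave 12 higher and 3 lower for the decoy against Col-0, and 9 higher and 3 lower for the decoy against cfh1. For PIF3 over-expression against the decoy it gave 2 higher (SGR1 and ACD2) and 23 lower. The cause was not tested beyond the shift of all genes given above. Fits of the 2 groups alone gave 0 lower for the decoy against Col-0, 24 lower for PIF3 over-expression against Col-0, 10 higher and 0 lower for the decoy against cfh1, and 0 higher for PIF3 over-expression against cfh1; the cause was not tested. DESeq2 called 21 higher and 1 lower in the decoy, and 1 higher and 22 lower with PIF3 over-expression, against Col-0.

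Leaving out 1 library at a time gave 15 to 21 higher and 0 to 1 lower for the decoy against Col-0, 0 to 1 higher and 4 to 13 lower for PIF3 over-expression against Col-0, 9 to 18 higher and 1 to 2 lower for the decoy against cfh1, 0 to 1 higher and 5 to 23 lower for PIF3 over-expression against cfh1, and 25 to 29 lower for PIF3 over-expression against the decoy. Replicate numbers did not pair the samples: 2 of 18 same-numbered pairs deviated together (r over 0.1), against 9 of 36 others. With the replicate number as a block the counts were 17 higher and 1 lower (decoy against Col-0), 1 and 13 (PIF3 over-expression against Col-0), 16 and 1 (decoy against cfh1), 1 and 17 (PIF3 over-expression against cfh1), 1 and 26 (PIF3 over-expression against the decoy) and 0 and 0 (cfh1 against Col-0). Against Col-0 the block ended the calls of CHLM in the decoy and of FLU and HEMA2 with PIF3 over-expression. For PIF3 over-expression against the decoy it ended those of CAO and FC1. Over single genes and all alternatives, calls were lost 27 times for the decoy and 55 times for PIF3 over-expression against Col-0, 54 and 69 times against cfh1, and 18 times for PIF3 over-expression against the decoy. The 3 libraries per genotype limit all of these counts.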
